A study of Sus scrofa with 92 samples.

Results

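SPIC, TLX1 and MSC are 3 transcription factor genes that stood among the genes with the highest levels in pig spleen relative to the other tissues measured. They were taken by symbol, as the rows for ENSSSCG00000000867 (SPIC), ENSSSCG00000010561 (TLX1) and ENSSSCG00000006187 (MSC), 3 of the 25322 gene IDs in the expression tables. RNA was sequenced from pigs of 10 breeds aged 60 days, in 83 libraries of single tissues and 9 libraries of tissue mixtures. There were 10 libraries each of spleen, psoas major and longissimus dorsi, the last pair being the deep loin muscle and the long muscle of the back. There were 9 each of liver, heart, ovary, kidney, subcutaneous adipose and the mixtures, and 8 of lung. Berkshire, Hampshire, Landrace, Large White and Piétrain were grouped as Western breeds from general knowledge. Tibetan wild boar, Rongchang, Meishan, Jinhua and Bamei were grouped as Chinese breeds in the same way. The labels give no treatment, and no statement of whether a library holds 1 animal or several. Each breed gave 1 library per tissue, except that lung was lacking for Rongchang, and every tissue but spleen and the skeletal muscles was lacking for Tibetan wild boar. Breeds thus served as the replicates of a tissue, and spread between breeds cannot be told from spread between animals or libraries. In the comparison of Chinese with Western breeds the p-values measure this spread. Between tissues they measure what is left once breed is fitted as a block. For the mixtures they measure the spread of differences within breeds.

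SPIC is an ETS family factor related to PU.1 that red pulp macrophages need for their development. These cells clear aged red blood cells and return the iron, and haem switches Spic on in mouse monocytes by removing the repressor BACH1. TLX1, also called HOX11, is a homeobox factor without which the mouse embryo loses its spleen. It acts in the mesenchyme from which the stroma of the organ forms. MSC (musculin, or ABF-1) is a basic helix-loop-helix repressor described in activated B cells and in precursors of skeletal muscle, where it competes for the E proteins that MYOD1 and its relatives pair with.

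Levels are FPKM, read fragments relative to transcript length and sequencing yield, scaled between libraries by median ratios, so levels of different genes are per length. The 10 spleens had total FPKM of 579179 to 1751460 and 12529 to 12745 genes at 1 FPKM or more. The most abundant gene took 6.07% to 44.7% of the total in a spleen library, and the scaling factors of the spleens lay between 1.26 and 1.39. The absolute depth is unknown, since no read counts were used. A depth relative to the median library, estimated from the spacing of low values, ran from 0.793 to 1.09 in the spleens and from 0.712 to 1.40 in all libraries. In whole tissue, fewer cells of a type and less RNA per cell cannot be told apart.

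SPIC was the most abundant of the 3 genes in spleen and the most even. It was at 195 scaled FPKM in Bamei, 284 in Jinhua, 227 in Meishan, 188 in Rongchang and 241 in Tibetan wild boar. In the Western breeds it was at 221 in Berkshire, 219 in Hampshire, 200 in Landrace, 188 in Large White and 208 in Piétrain. The highest spleen was thus 1.51 times the lowest, and the mean was 217 ± 29.3 (SD, n = 10). Between spleens its log2 level had an SD of 0.19, and 40.3% of the 13160 genes tested in spleen varied less. SPIC ranked 258 among all gene IDs by mean level in spleen.

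TLX1 was at 43.2 scaled FPKM in the spleen of Bamei, 31.5 in Jinhua, 25.2 in Meishan, 12.8 in Rongchang and 39.9 in Tibetan wild boar. In the Western breeds it was at 41.5 in Berkshire, 50.2 in Hampshire, 36.0 in Landrace, 37.9 in Large White and 33.5 in Piétrain. Rongchang lay lowest, and Meishan was the next. The mean was 35.2 ± 10.4 (SD, n = 10), and 92.2% of the genes tested in spleen varied less between spleens on the log2 scale.

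MSC varied most between spleens. It was at 153 scaled FPKM in Bamei, 232 in Jinhua, 81.4 in Meishan, 72.0 in Rongchang and 72.3 in Tibetan wild boar, and at 142 in Berkshire, 46.0 in Hampshire, 75.3 in Landrace, 65.8 in Large White and 57.3 in Piétrain. Jinhua, Bamei and Berkshire stood above the other 7 spleens, with no library between 81.4 and 142. The mean was 99.8 ± 58.2 (SD, n = 10) and the highest spleen was 5.04 times the lowest. By SD of the log2 level MSC exceeded 95.9% of the genes tested. Among genes of similar mean level in spleen, the share that varied less was 90.9% of 771 for MSC. It was 93.2% of 2310 for TLX1 and 39.9% of 321 for SPIC.

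**Figure D1:**
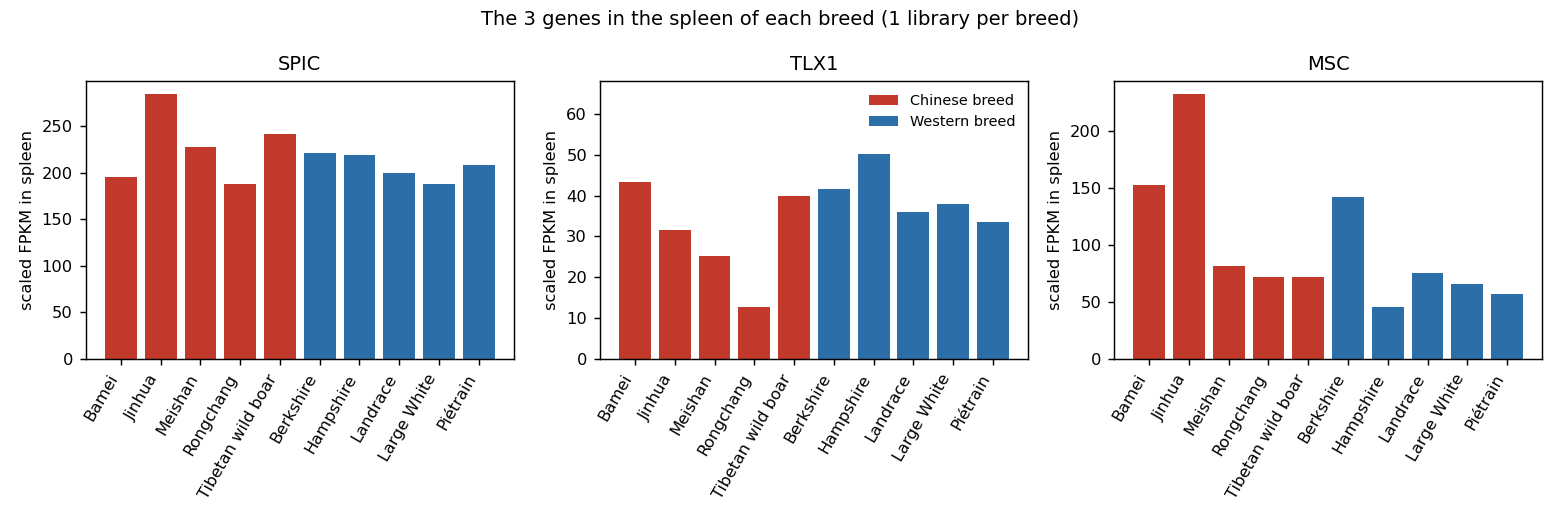
Scaled FPKM (vertical axes, linear from 0) of SPIC, TLX1 and MSC in the spleen of each breed, 1 bar per library, red for Chinese and blue for Western breeds. SPIC lies between 188 and 284, TLX1 is lowest in Rongchang at 12.8, and MSC is at 142 or more in Bamei, Jinhua and Berkshire alone.

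The genes were chosen for their level in spleen, so their contrast with other tissues is a description and nothing is read from a test of it. The lowest spleen exceeded the highest of the 73 libraries of other tissues 90.8-fold for SPIC, 28.4-fold for TLX1 and 4.36-fold for MSC. Spleen made up 97.8% of the sum of the 9 tissue means for SPIC, 99.0% for TLX1 and 86.5% for MSC. For other genes a call for spleen was used below. A gene was called when its level there exceeded that of each of 7 other tissue classes, with both skeletal muscles as 1 class. Every log2 difference had to be above 1 and every adjusted limma p below 0.05. Of 17207 genes 502 met that rule (2.92%), and 99 met the same rule for lower levels (0.575%). That the 3 genes are among the 502 was fixed by their choice. The smallest of the 7 log2 differences was 6.82 for SPIC, against adipose, 4.78 for TLX1, against heart, and 4.21 for MSC, against ovary. These differences are of log2(scaled FPKM + 1), which understates the change of a gene that is low in one of the tissues.

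**Figure D2:**
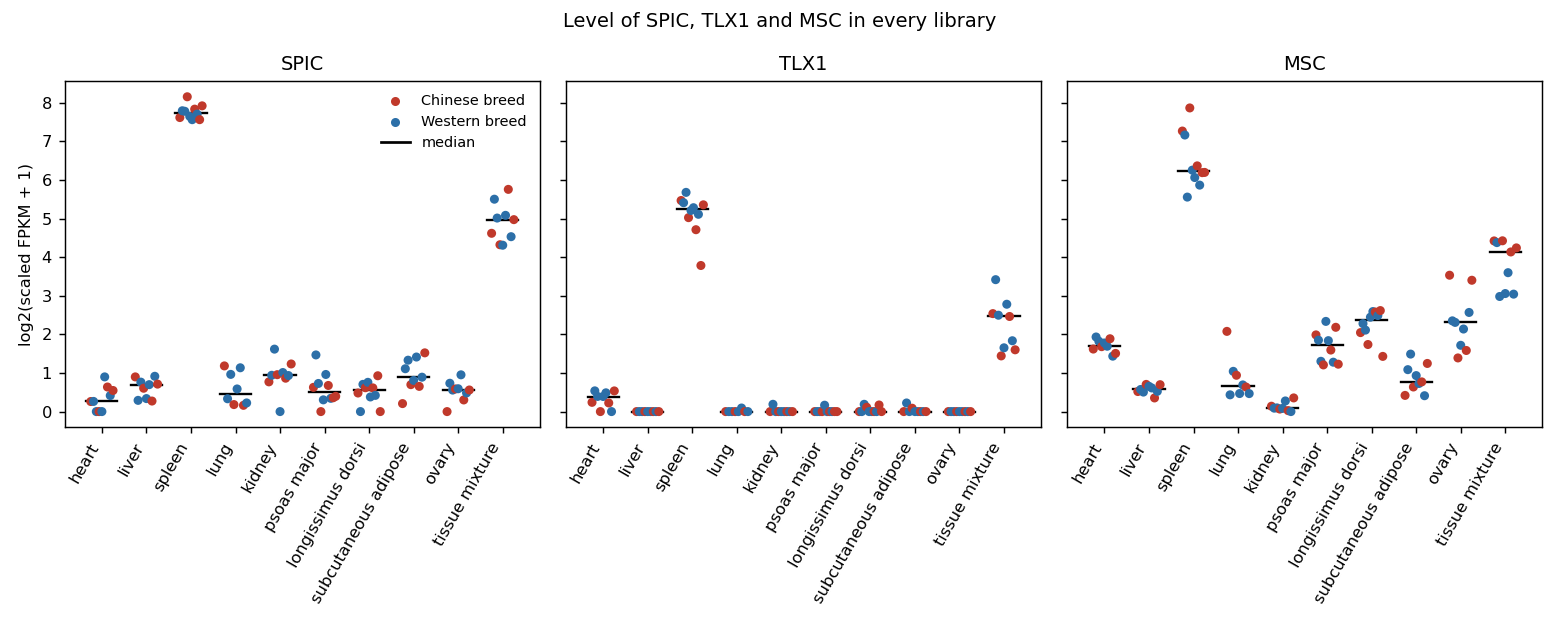
Level of SPIC, TLX1 and MSC (vertical axes, log2 of scaled FPKM plus 1) in every library of 9 tissues and of the tissue mixtures, 1 point per breed, red for Chinese and blue for Western breeds, with a bar at the median. All 10 spleens lie above every library of the other 8 tissues for each gene, and MSC alone is above 1 in heart, both muscles and ovary in every library.

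Outside the spleen SPIC was low throughout. It was below 1 FPKM as deposited in 56 of the 73 libraries and listed at 0 in 8 of them, while 7 of 9 kidneys reached 1 FPKM. The highest medians were 0.919 scaled FPKM in kidney (0 to 2.07, n = 9) and 0.854 in adipose (0.154 to 1.87, n = 9). The lowest was 0.200 in heart (0 to 0.864, n = 9). The medians were 0.622 in liver, 0.473 in ovary, 0.463 in longissimus dorsi, 0.430 in psoas major and 0.380 in lung. All tissues overlapped in range.

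Among the 28 pairs of the 8 tissues other than spleen, 8 were called for SPIC by limma at a Benjamini-Hochberg adjusted p below 0.05. In all 8 the higher tissue was kidney or adipose, as in kidney minus ovary (log2 0.39 ± 0.15 SE, limma adjusted p = 0.0179). Over all genes 67.8% of gene and tissue pairs were called. No pair of neighbours in the order of tissue means was called for SPIC, from adipose and kidney (0.03 ± 0.15, adjusted p = 0.904 by limma) down to longissimus dorsi and heart (0.19 ± 0.15, adjusted p = 0.265). The number of called pairs was 15 on FPKM as deposited, 4 with a pseudocount of 0.1, 4 without Hampshire and 5 without Large White.

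TLX1 was below 1 FPKM in all 73 libraries outside the spleen and listed at 0 in 58 of them. Heart was the only tissue with values above 0 in most libraries. There it was at 0.168 scaled FPKM in Meishan to 0.451 in Berkshire in 7 libraries and listed at 0 in the other 2. Liver and ovary were listed at 0 in all 9 libraries each. The remaining values above 0 were 3 in longissimus dorsi (0.0809 to 0.140), 2 in adipose (0.0622 and 0.167) and 1 each in lung, kidney and psoas major. TLX1 did not pass the filter of 1 FPKM in at least 3 libraries once spleen was left out, so tissues were not ranked.

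MSC was at 1 FPKM or more, as deposited, in every library of heart, longissimus dorsi and ovary. Its median was 4.15 scaled FPKM in longissimus dorsi (1.69 to 5.13, n = 10), 3.96 in ovary (1.62 to 10.6, n = 9), 2.30 in psoas major (1.31 to 4.05, n = 10) and 2.23 in heart (1.71 to 2.82, n = 9). It was lower in adipose (0.704, from 0.330 to 1.81), lung (0.584, from 0.351 to 3.22), liver (0.487, from 0.277 to 0.629) and kidney (0.0637, from 0 to 0.278). The ovaries of Bamei and Rongchang were at 10.6 and 9.57, and the other 7 ovaries at 4.93 or below.

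For MSC 23 of the 28 pairs of tissues were called by limma, where 67.8% of gene and tissue pairs were called over all genes. In order of tissue means, ovary and longissimus dorsi were not called apart (log2 0.03 ± 0.17 SE, adjusted p = 0.912). Longissimus dorsi exceeded psoas major (0.54 ± 0.16, adjusted p = 0.00269 by limma), psoas major and heart were not called apart (0.05 ± 0.17, adjusted p = 0.839), and heart exceeded lung (0.79 ± 0.18, adjusted p = 8.54e-05). Lung, adipose and liver followed with no neighbours called, and liver exceeded kidney (0.43 ± 0.17, adjusted p = 0.0254 by limma). With any 1 breed left out, 23 pairs were called again.

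The comparison of psoas major with longissimus dorsi asked about the muscles directly, with breed as a block. Of the 3 genes MSC alone passed the filter in the 20 muscle libraries. It was higher in longissimus dorsi in 10 of 10 breeds, with breed differences of -0.997 to -0.06 on the log2 scale and overlapping ranges of the muscles (1.31 to 4.05 against 1.69 to 5.13 scaled FPKM). Longissimus dorsi had a mean level of 3.85 ± 1.20 and psoas major one of 2.33 ± 0.979 scaled FPKM (SD, n = 10 each). On the scale of log2(scaled FPKM + 1) the mean difference was -0.46 ± 0.09 (SE), with a limma adjusted p of 0.00367 by Benjamini-Hochberg. With a pseudocount of 0.1 it was -0.70 (limma adjusted p = 0.00343). In the same comparison 27.7% of 12112 genes were called, 15.1% lower and 12.7% higher in psoas major. Without the replicate block the adjusted limma p of MSC was 0.0715.

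**Figure D3:**
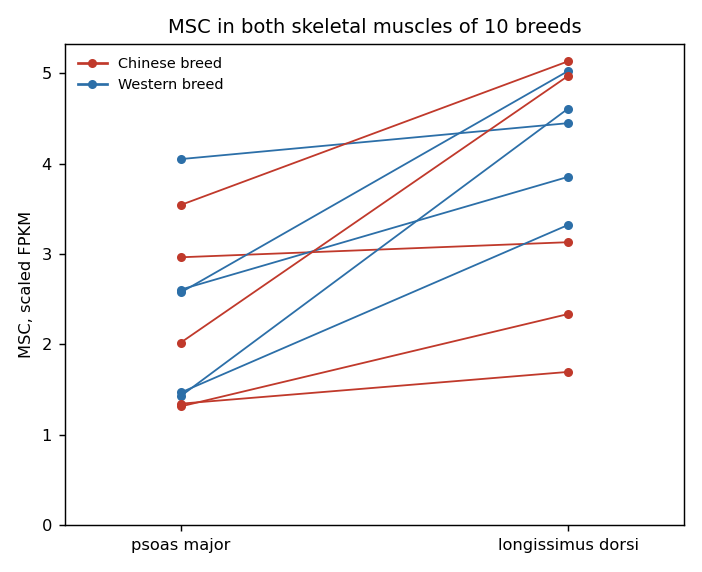
MSC level (vertical axis, scaled FPKM, linear from 0) in psoas major and longissimus dorsi, 1 line per breed, red for Chinese and blue for Western breeds. Each of the 10 lines rises from psoas major to longissimus dorsi, while the ranges of the muscles overlap.

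Of the myogenic relatives of MSC, MYF5, a determination factor of myoblasts, had a mean of 3.18 ± 0.654 scaled FPKM (SD, n = 10) in psoas major, against 4.29 ± 0.990 in the back muscle, a log2 difference of -0.28 ± 0.10 (limma adjusted p = 0.0452). MYF6, a factor of maturing fibres, was at 177 ± 105 and 285 ± 141 (-0.63 ± 0.23, limma adjusted p = 0.0595). MYOD1, a master factor of myogenesis, was at 39.5 ± 19.8 and 41.4 ± 21.0 (-0.04 ± 0.12, limma adjusted p = 0.851). Of 8 tested partners and relatives of MSC, 1 was lower in psoas major, MYF5, and 0 were higher. Of the lists of other cell types, some had members called lower in psoas major, where 15.1% of all genes were. These were 3 of 6 satellite cell and myoblast genes (sums over the list of 37.1 to 111 scaled FPKM in psoas major against 54.9 to 138 in longissimus dorsi), 4 of 5 myofibre genes (51167 to 111321 and 48163 to 120789), 5 of 8 red pulp macrophage genes (81.7 to 264 and 80.1 to 295) and 4 of 8 macrophage and monocyte genes (48.4 to 186 and 62.9 to 178). Adipocyte genes were lower in 3 of 5 cases (112 to 581 and 113 to 458). Hepatocyte genes were lower in 7 of 8 cases, at 0.420 to 18.8 in psoas major and 0.256 to 313 in longissimus dorsi. None of these lists had a gene at 0 in all libraries of a muscle. Counts were 0 of 6 for T and NK cells, 0 of 1 for B cells, 0 of 9 for spleen stroma and 0 of 2 for red blood cell precursors, with 0 called higher in these lists. The 1 tested pancreas gene, CPA1, was called higher. The part of these cell types in the MSC result was not tested.

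The pathway of each gene was followed through lists of genes called for spleen under the rule above, which 2.92% of all genes met. Of 6 tested ETS relatives and partners of SPIC, 0 were called. SPI1, encoding PU.1 of myeloid and B cells, had a spleen mean of 101 ± 16.3 scaled FPKM (SD, n = 10), next to 89.1 ± 20.3 in lung (n = 8). ELF1, an ETS factor of lymphocytes, was at 43.8 ± 4.17 in spleen and 28.3 ± 4.72 in lung. The median of the smallest log2 differences of this list was 0.13, against -0.97 over all genes.

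Of 8 tested genes of red pulp macrophages, 2 were called for spleen. VCAM1, an adhesion molecule on these macrophages, was at 486 ± 125 scaled FPKM there and at 64.9 ± 19.8 in adipose, its nearest class. CSF1R, the receptor of macrophage colony stimulating factor, was at 97.3 ± 18.7 in spleen and 41.7 ± 9.17 in lung. The list's median smallest log2 difference was 0.57. Of 9 tested genes of haem and iron handling, 0 were called, with a median of -0.71. FTL, the ferritin light chain, was at 2510 ± 673 and CD47, a surface signal that holds back phagocytosis, at 116 ± 14.2 in spleen. BACH1, the haem sensor, was at 6.70 ± 1.09 in spleen and higher in liver, lung, kidney and both muscles by mean level. SLC40A1, the iron exporter ferroportin, had its highest tissue mean in spleen at 0.149 ± 0.233, and no tissue reached 1. Whether the gene model of the annotation used captures this transcript was not tested.

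Of 9 tested genes of spleen development, 1 was called, NKX2-3, a homeobox factor of spleen and gut mesenchyme. It was at 9.26 ± 1.49 scaled FPKM in spleen and 0.623 ± 0.473 in ovary (n = 9), its nearest class, and listed at 0 in all libraries of kidney, adipose and both muscles. WT1, a zinc finger factor that the embryonic spleen needs, was at 11.9 ± 2.19 in spleen, 11.4 ± 1.93 in kidney and 57.3 ± 18.4 in ovary. The relatives of TLX1 did not share its pattern: TLX2 reached 0.0955 at most in a spleen, and TLX3 was listed at 0 in all spleens and reached 2.70 ± 1.20 in ovary. ALDH1A2, which makes retinoic acid, and CYP26B1, which breaks it down, had their lowest tissue means in spleen, at 0.277 ± 0.178 and 0.300 ± 0.154. The list's median smallest log2 difference was -2.02. Of 10 tested stromal genes, 0 were called (median -1.32; 2 without Berkshire and 1 without Bamei, Meishan or Rongchang), with ACTA2, smooth muscle actin, at 319 ± 89.3 and DES, desmin, at 83.1 ± 36.0 in spleen.

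Of 10 tested bHLH partners and relatives of MSC, 0 were called for spleen, with a median of -1.64. TCF12, an E protein, was at 48.4 ± 12.6 scaled FPKM in spleen and 31.7 ± 4.45 in lung. TCF3, the E protein of B cell development, was at 9.47 to 12.9 in spleen and 10.4 to 13.9 in ovary. ID2, an inhibitor of E proteins, was at 57.8 ± 8.55 in spleen. MYOD1 was listed at 0 in all 10 spleens.

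**Figure D4:**
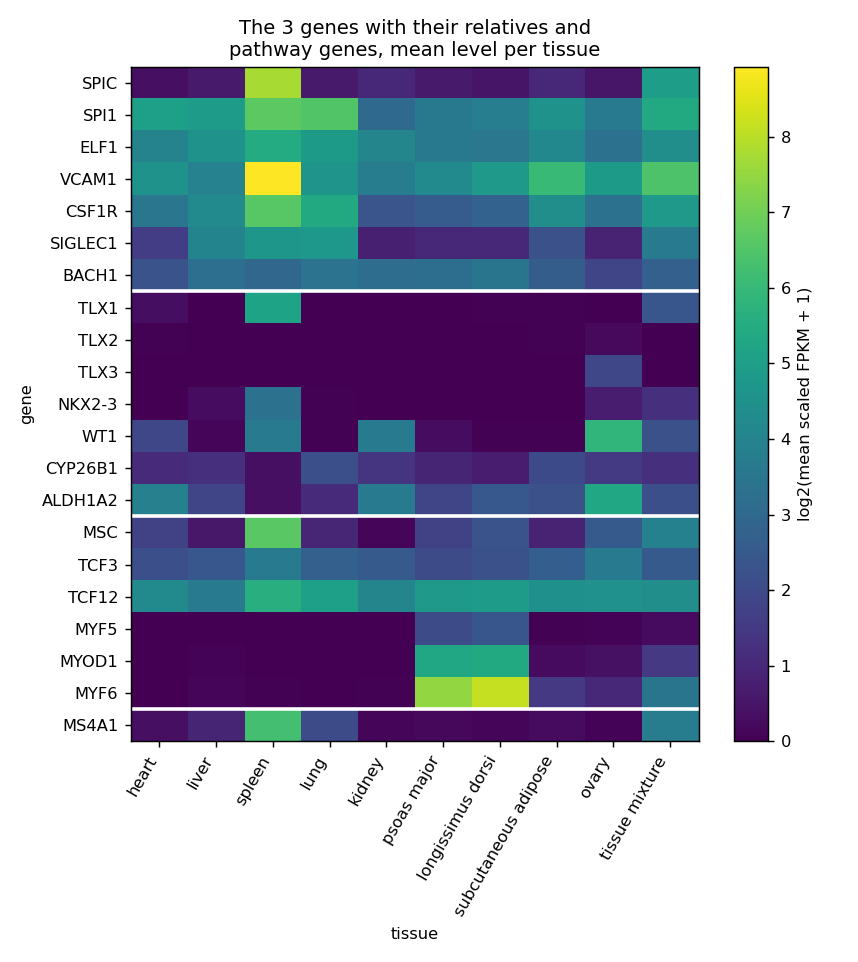
Mean level per tissue (colour, log2 of mean scaled FPKM plus 1) of SPIC, TLX1 and MSC and of their relatives, targets and partners, with MS4A1 of B cells, in 9 tissues and the tissue mixtures. Spleen is the highest tissue of TLX1 and NKX2-3, and also of SPIC, MSC, VCAM1, CSF1R and MS4A1, among others. TLX3 and WT1 are highest in ovary and MYF5, MYOD1 and MYF6 in the skeletal muscles.

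The label of the tissue was checked on marker lists under the same rule. In spleen 7 of 8 B cell genes were called (median smallest log2 difference 2.67), with MS4A1, which encodes CD20, at 75.6 ± 13.4 scaled FPKM, CD79B at 71.1 ± 17.2 and POU2AF1 at 44.9 ± 12.4. T and NK cells had 6 of 8 genes called (1.85), led by LCK at 53.7 ± 11.2, CD2 at 82.2 ± 25.1, CD3D at 45.7 ± 8.56 and CD5 at 22.0 ± 6.48. Macrophage and monocyte genes had 2 of 9 called (0.47), CSF1R and CTSS, red blood cell precursor genes 2 of 8 (0.59), HBB and ALAS2, and platelet genes 1 of 2 (0.35), TUBB1. Counts were 0 of 3 for pancreas, 0 of 8 for hepatocytes, 0 of 5 for myofibres, 0 of 6 for satellite cells, 0 of 5 for adipocytes and 0 of 5 for neurons and gut, with medians of -0.94, -11.86, -13.69, -3.59, -7.75 and -0.84. No list had a gene called lower in spleen. The summed pancreas genes, from the organ beside the spleen, reached 0.509 scaled FPKM at most in a spleen. Hepatocyte genes had a median sum of 0.167 in Chinese spleens but reached 24.9, against 0.538 at most in Western spleens. The highest sums were 7.64 for myofibres, 7.55 for neurons and gut, 3.56 for satellite cells and 27.1 for adipocytes, all in Western spleens. The source of these values was not tested.

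Likeness was measured as Pearson r of log2(scaled FPKM + 1) over the 83 tissue libraries, with 10587 named genes as candidates, and is a description that rests largely on the step between spleen and the rest. For SPIC the most alike genes were FCRL4 (r = 0.980), TLX1 (0.978), CLEC17A (0.976), CCR6 (0.974) and FCRLA (0.966). For TLX1 they were FCRL4 (0.980), SPIC (0.978), CLEC17A (0.978), CCR6 (0.975) and NKX2-3 (0.966). For MSC they were ELL3 (0.931), FCRL4 (0.895), TLX1 (0.895), NKX2-3 (0.893) and SLX4 (0.888), and its r with SPIC was 0.872. FCRL4 and FCRLA are Fc receptor-like genes of B cells, CLEC17A is a lectin of germinal centre B cells and CCR6 is a chemokine receptor of B and T cells. By Spearman correlation 0 of the 5 genes were retained for each of the 3. On FPKM as deposited the list of MSC changed as well, while those of SPIC and TLX1 were kept or nearly so.

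Between spleens no pair of the 3 genes had a correlation with a permutation p below 0.05. Across the 10 spleens, r was 0.167 for SPIC and TLX1 (permutation p = 0.627, rho = -0.03, p = 0.945), 0.502 for SPIC and MSC (p = 0.141, rho = 0.394, p = 0.267) and 0.0318 for TLX1 and MSC (p = 0.936, rho = -0.10, p = 0.782). The smallest p adjusted over these 3 pairs was 0.423. The value for SPIC and MSC rested on 1 library: without Jinhua, the highest spleen for both, r was -0.00199. Without Bamei r was 0.685 (permutation p = 0.0467). Without the 2 libraries farthest from the median of the first gene, r was 0.264, 0.0591 and -0.341 in the same order. Relations of each gene to the summed level of 8 marker lists, 24 in all, gave 0 adjusted p below 0.05, 4 unadjusted ones and a lowest adjusted p of 0.242.

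Chinese and Western spleens were compared with 5 libraries each. MSC was at 72.0 to 232 scaled FPKM in Chinese and 46.0 to 142 in Western spleens, a log2 difference of 0.61 ± 0.38 (SE, 95% interval -0.24 to 1.46). TLX1 was at 12.8 to 43.2 and 33.5 to 50.2, a difference of -0.47 ± 0.28 (-1.09 to 0.15). SPIC was at 188 to 284 and 188 to 221, a difference of 0.13 ± 0.12 (-0.13 to 0.39). Leaving out 1 breed at a time moved these differences to 0.34 (without Jinhua) to 0.86 (without Berkshire) for MSC, -0.61 (without Bamei) to -0.19 (without Rongchang) for TLX1 and 0.05 (without Jinhua) to 0.19 (without Rongchang) for SPIC. The groups overlapped for all 3 genes, and each had a limma adjusted p of 0.999. Over all 13160 genes 0 were called (0%), with 669 at an unadjusted p below 0.05, and none of the 3 was below 0.05 unadjusted. Without Berkshire 36 genes were called and without Bamei 3, with the lowest adjusted limma p of the 3 genes at 0.602 and 0.776. In the summed marker lists of spleen, red blood cell precursor genes spanned 1807 to 9938 in Chinese and 1105 to 5803 in Western spleens, and T and NK cell genes 141 to 372 and 220 to 270. Their part in these values was not tested.

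In the other tissues the genes passed the filter in 9 of 24 cases, and 0 of these differed by origin in limma. They were SPIC in lung, kidney and adipose, and MSC in heart, lung, both muscles, adipose and ovary. The largest difference was that of MSC in lung, 0.70 ± 0.36 (SE, 95% interval -0.13 to 1.53, limma adjusted p = 0.809). The 3 Chinese lungs were at 3.22 in Bamei, 0.919 in Jinhua and 0.554 in Meishan, and the 5 Western lungs at 0.351 to 1.06, so Bamei alone lay above all Western lungs. Over all genes and the 8 tissues 0.124% of 102509 tests were called.

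Tissue mixtures, 1 per breed without a stated composition, carried all 3 genes. SPIC was at 18.8 to 53.0 scaled FPKM in the 9 mixtures (median 30.4), TLX1 at 1.72 to 9.68 (4.51) and MSC at 6.90 to 20.5 (16.6). Every mixture lay below every spleen for each gene. As a share of the spleen of the same breed, the mixture held 6.69% to 23.3% for SPIC (median 14.3%), 5.45% to 23.3% for TLX1 (11.1%) and 8.81% to 24.9% for MSC (13.9%).

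In the 8 breeds with all 9 tissues, the mixture was set against the mean level of the tissues. The log2 difference was 0.21 ± 0.18 for SPIC (SE, 95% interval -0.18 to 0.61, higher in 5 of 8 breeds, limma adjusted p = 0.308), -0.03 ± 0.19 for TLX1 (-0.47 to 0.40, higher in 3 of 8, limma adjusted p = 0.885) and 0.03 ± 0.10 for MSC (-0.20 to 0.25, higher in 5 of 8, limma adjusted p = 0.835). Of all 17284 genes 66.4% were called, and 0 of these 3 were. Spleen made up 97.8% of the sum of tissue means for SPIC, 99.0% for TLX1 and 86.5% for MSC. TLX1 passed the filter through spleens and mixtures alone. The difference thus asks mainly how much of the spleen level a mixture held, and nothing is read from the count of 0. Leaving out 1 breed moved SPIC to 0.09 (without Meishan) to 0.35 (without Jinhua) and turned the sign of TLX1 (without Jinhua, Landrace or Piétrain) and of MSC (without Large White or Meishan). On FPKM as deposited and after quantile normalization the signs of SPIC and MSC turned, and after quantile normalization MSC was called lower (-0.32, adjusted limma p = 0.0179). Over all genes 17.4% were called higher and 49% lower in the mixtures. Of 6 tested genes of neurons and gut, 5 were higher, SYT1, NEFL, VIL1, GFAP and SNAP25, and CDX2 was lower. These 6 were named after their values were seen. The lists of cells found in spleen hold genes that other tissues carry too, so their counts do not measure the spleen content of a mixture. Higher were 5 of 8 red pulp macrophage genes and 4 of 9 macrophage and monocyte genes. So were 3 of 8 T and NK cell genes and 4 of 6 red blood cell precursor genes, with 0 lower in these lists. Of the spleen stroma genes 5 of 10 were lower, and of the platelet genes 1 of 2, with 0 higher. These shares are near the 49% called lower over all genes. The stroma list had a median of -0.13, as all genes had. Of 9 spleen development genes 6 were lower and 0 higher. B cell genes had 0 of 8 called either way, with a list median of 0.18 against -0.13 for all genes. Of the genes called higher, CTSS, CD3D, CD8A, HBB and ALAS2 were called for spleen. TFR2, CD14 and MRC1 were lower in spleen than in liver (log2 -8.24, -4.31 and -3.98), and MARCO lower than in lung (-2.04). DES, called lower, was lower in spleen than in skeletal muscle (-5.33). Hepatocyte genes were higher in 7 of 8 cases with 0 lower, and myofibre genes lower in 4 of 5 with 0 higher.

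Ratios between the genes in 1 library do not depend on scaling between libraries. MSC over SPIC was 0.784 in the spleen and 0.867 in the mixture of Bamei, 0.818 and 1.08 in Jinhua, 0.645 and 0.446 in Berkshire, and 0.383 and 0.589 in Rongchang. The spleens of the other 5 breeds were at 0.211 to 0.377 and their mixtures at 0.220 to 0.389. Over the 9 breeds the ratio in the mixture was 0.692 to 1.54 times that in the spleen, with a median of 1.05. The ratios correlated between spleen and mixture (Pearson r = 0.889, permutation p = 0.0033, Spearman rho = 0.933, permutation p = 0.00071, n = 9, adjusted p = 0.00495 and 0.00213). Without Bamei and Jinhua r was 0.556 (exact permutation p = 0.254, n = 7). Within the 6 breeds below the gap in the spleen ratio, r was 0.715 (exact permutation p = 0.0222, adjusted p = 0.0667) and rho was 0.829 (p = 0.0583).

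TLX1 over SPIC ran from 0.0680 in the spleen of Rongchang to 0.230 in that of Hampshire, and from 0.0669 in the mixture of Rongchang to 0.219 in that of Berkshire. The ratio in the mixture was 0.631 to 1.16 times that in the spleen (median 0.814), with r = 0.815 (permutation p = 0.00954) and rho = 0.833 (permutation p = 0.00872, adjusted p = 0.0131). Without Meishan and Rongchang r was 0.676 (exact permutation p = 0.0825, n = 7). SPIC is shared by both ratios, the labels do not say whether mixture and spleen came from the same animals, and these relations were chosen after the data were seen.

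**Figure D5:**
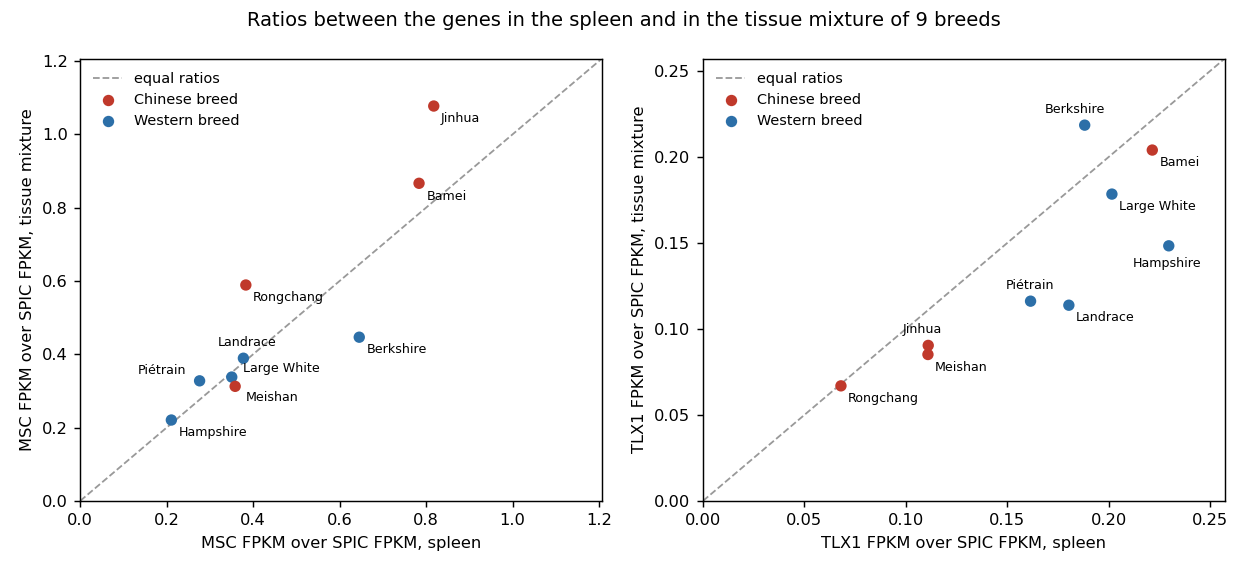
Ratio of MSC to SPIC (left) and of TLX1 to SPIC (right) in the spleen (horizontal axes) and in the tissue mixture (vertical axes) of 9 breeds, 1 point per breed, red for Chinese and blue for Western, with a dashed line of equal ratios. Bamei and Jinhua lie highest on the left, Rongchang lies lowest on the right, and the ratios span 0.211 to 0.818 and 0.0680 to 0.230 in spleen.

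The neighbours of the genes in the Sscrofa11.1 annotation were looked up by symbol, for order alone. KAZALD1, the gene next to TLX1, reached its highest tissue mean in spleen, 31.7 ± 10.7 scaled FPKM (SD, n = 10), and was at 0.112 to 32.8 in the other libraries. Like TLX1 it was low in Rongchang and Meishan, at 17.8 and 16.8, and it was highest in Bamei and Berkshire, at 47.9 and 45.5. Across the 10 spleens r was 0.767 (permutation p = 0.00313, adjusted p = 0.00495 over the 3 relations chosen after the data were seen) and rho was 0.733 (permutation p = 0.0207). The adjustment does not cover the choice of KAZALD1 among the neighbours looked up. Without Meishan and Rongchang r was 0.554 (exact permutation p = 0.151, n = 8). LBX1, on the other side of TLX1, was at 0.264 ± 0.140 in spleen and highest in psoas major at 5.86. SPIC lay between MYBPC1, a slow muscle gene at 0.0248 ± 0.0198 in spleen and 1547 in psoas major, and ARL1, at 16.7 ± 1.37 in spleen, its lowest tissue. TRPA1, next to MSC, was at 0.00493 ± 0.00724 in spleen.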

How the data were processed

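Per the labels' protocols, total RNA was made into Illumina TruSeq libraries. Per the submitters' processing notes, the authors used TopHat, Cufflinks 2.2.1 and the Sscrofa10.2 genome. The deposited values are FPKM per gene ID. Use of strand, annotation release and filters are not given in the sources used here. FPKM totals differed between libraries and no 2 libraries were identical.

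FPKM were scaled by median ratios, for each fit anew, and levels in the text use the scaling over all 92 libraries. Genes at 1 FPKM in at least 3 libraries of a fit entered limma 3.58.1 (R 4.3.3, trend and robust options) on log2(scaled FPKM + 1), with two-sided p adjusted by Benjamini-Hochberg over all genes tested. Permutation tests were two-sided with 100000 resamples in scipy 1.17.1, or exact for fewer than 9 values. The code was tested on simulated data. Symbols came from a separate table, in which 11804 IDs had one, and 126 of 197 listed symbols matched. SPIB, TCF21, MYOG, HMOX1, CD163, CD5L and NKX2-5 were not analysed here.

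The members and the 17 gene lists were chosen with earlier results of these data known. Named genes were the 3 members, the 5 most alike per member, up to 4 called genes per list or the 2 highest in spleen, and a set of relatives and partners. Some genes that this rule names are left out of the text. Each comparison was repeated with each breed left out, without scaling, with quantile normalization, with 0.1 as pseudocount, with the filter at 5 FPKM or dropped, without the block, and with plain limma moderation. No sequence was available for printing, and the Sscrofa11.1 annotation served for gene order alone.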

Additional observations from a re-analysis of the deposited data

Results flagged for a closer look

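Of 28 groups examined, 5 held a library that stood apart from the others by Dixon's criterion, where chance marks about 1 group in 20. For TLX1 this was the lung of Large White at 0.0661 scaled FPKM (the other 7 lungs listed at 0), the kidney of Berkshire at 0.140 (8 others listed at 0), the psoas major of Landrace at 0.121 (9 others listed at 0) and the adipose of Berkshire at 0.167 (others 0 to 0.0622). All 4 values are below 1 FPKM. Where all other libraries are listed at 0, any value above 0 stands apart by construction. The rate of 1 in 20 thus does not apply to the lung, kidney and psoas major groups. Nor does it apply to the adipose group, where 7 of 9 libraries were listed at 0.

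MSC in the lung of Bamei was at 3.22 scaled FPKM, and the other 7 lungs were at 0.351 to 1.06 (median 0.554). The same library had the highest sum of 8 B cell genes of the lungs, 74.2 against a median of 38.2 over all lungs, and the highest sum of 9 T and NK cell genes, 147 against a median of 63.2. Their part in the MSC value was not tested.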

How the results depend on the processing

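Of 491 alternative values, 442 kept their direction and their side of the threshold or moved little. On FPKM as deposited, 55 genes were called lower in spleen, SPIC had 15 called tissue pairs, and the mixture differences were -0.078 for SPIC and -0.21 for MSC. Quantile normalization turned these to -0.16 and -0.32, and the correlation of SPIC and TLX1 to -0.0607. With a pseudocount of 0.1, 244 genes were called lower in spleen and SPIC had 4 called pairs. With a filter at 5 FPKM, 40 tests were called by origin in the 8 other tissues. Without the replicate block, 645 genes were called between the muscles, and MSC was at -0.46 with an adjusted limma p of 0.0715. With the mean of log2 values as reference, chosen after the data were seen, the mixture exceeded the tissues by 3.49 for SPIC, 1.71 for TLX1 and 1.90 for MSC. That reference is a geometric mean, which weights the tissues with low levels more.

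Leaving out 1 breed at a time gave 0 to 36 genes called by origin in spleen (36 without Berkshire, 3 without Bamei), none of them among the 3 genes, and 73 to 129 in the 8 other tissues (73 to 78 without Bamei, Jinhua, Large White or Piétrain). It gave 4 to 11 called pairs for SPIC (4 without Hampshire, 5 without Large White), 0 to 2 stromal genes called, and mixture differences of -0.170 to 0.067 for TLX1 and -0.062 to 0.088 for MSC, with SPIC at 0.092 to 0.346. Correlations across spleens ran from -0.339 (without Rongchang) to 0.311 for SPIC and TLX1, from -0.00199 (without Jinhua) to 0.685 (without Bamei, permutation p = 0.0467) for SPIC and MSC, and from -0.189 to 0.242 for TLX1 and MSC. In the 7 spleens below the gap in MSC the last was -0.484. Without the breeds farthest from the median, the ratios in spleen and mixture correlated at 0.556 for MSC over SPIC and 0.676 for TLX1 over SPIC. The cause of these shifts was not tested.

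The read counts and absolute depth of the libraries are unknown, so the counting error of values below 1 FPKM cannot be given. This limits TLX1 and SPIC outside the spleen, and MSC in the 33 of 73 other libraries below 1 FPKM, among them liver and kidney.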
